A study of Mus musculus with 18 samples.

Results

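EOS3F-24, a mouse cell line that stalled part of the way to pluripotency, was set against the embryonic fibroblasts from which it was made. The comparison used 6 of the 18 arrays of the series: 3 arrays titled EOS3F-24 without 2i and 3 arrays titled CD1 MEFs. It covered 19937 genes, each read through 1 probe set: where a gene symbol had several probe sets of its own, the brightest on average across the series was taken. The question was which fibroblast genes were lost and which genes foreign to fibroblasts were gained in a line that had not reached the pluripotent state.

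The fibroblasts (MEFs, mouse embryonic fibroblasts) were primary cells of the CD1 strain at low passage, grown in DMEM with serum. EOS3F-24 had been made from such cells with 3 retroviruses, pMX-Oct4, pMX-Klf4 and pMX-Sox2. Its culture had feeder cells that no longer divide, LIF and puromycin at 1 μg/mL, and all its arrays come from this single line. The groups used beside it were EOS3F-28 and EOS3F-29, labelled as full iPS lines and made and kept in the same way, and J1 embryonic stem (ES) cells, grown on feeders with LIF without mention of puromycin. EOS3F-24 after conversion with a MEK inhibitor at 2 μM and a GSK inhibitor at 12 μM (2i) is given as a level only. MEFs alone had no feeders or LIF, so in the comparison with MEFs those conditions cannot be told apart from reprogramming. The labels do not say whether the 3 arrays of a group were separate cultures, so the spread behind each p-value is that of the arrays and may be purely technical.

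Fibroblasts secrete the collagen and elastic matrix of connective tissue and pull on it with actin filaments and myosin. Reprogramming to induced pluripotency is known to shut down this mesenchymal state, to switch on epithelial adhesion early, and to activate the endogenous pluripotency network late. Partially reprogrammed lines are known to divide as compact colonies without that network.

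All values are log2 array values, on which a difference of 1 is a 2-fold change, and errors of differences are SE. A gene was called where its adjusted p was below 0.05 (limma, Benjamini-Hochberg over all genes). The arrays had medians of 3.92 to 4.11, their number limits the precision, and arrays of the same group correlated over genes at 0.981 to 0.992 for these groups, against 0.917 to 0.955 between a partial and a MEF array. Single arrays stood apart within groups. Partial replicate 1 read fibroblast genes higher than the other two: the mean of the 32 measured genes for fibrillar collagens and their assembly was 6.66, 6.14 and 5.99 in the partial arrays, against 7.75, 7.72 and 7.88 in MEFs. The replicate 1 array was also the highest for these genes in EOS3F-28 (6.35), EOS3F-29 (6.85), J1 (6.34) and the converted cells (6.28). MEF replicate 2 read muscle and basal keratinocyte genes high, with Actc1 (cardiac actin) at 8.82 against 7.45 and 5.79, and Krt5 (a basal keratin) at 7.70 against 3.49 and 3.62. MEF replicate 3 read the macrophage gene Lyz2 at 6.22 against 5.02 and 4.55. What these differences between arrays come from was not tested.

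**Figure D1:**
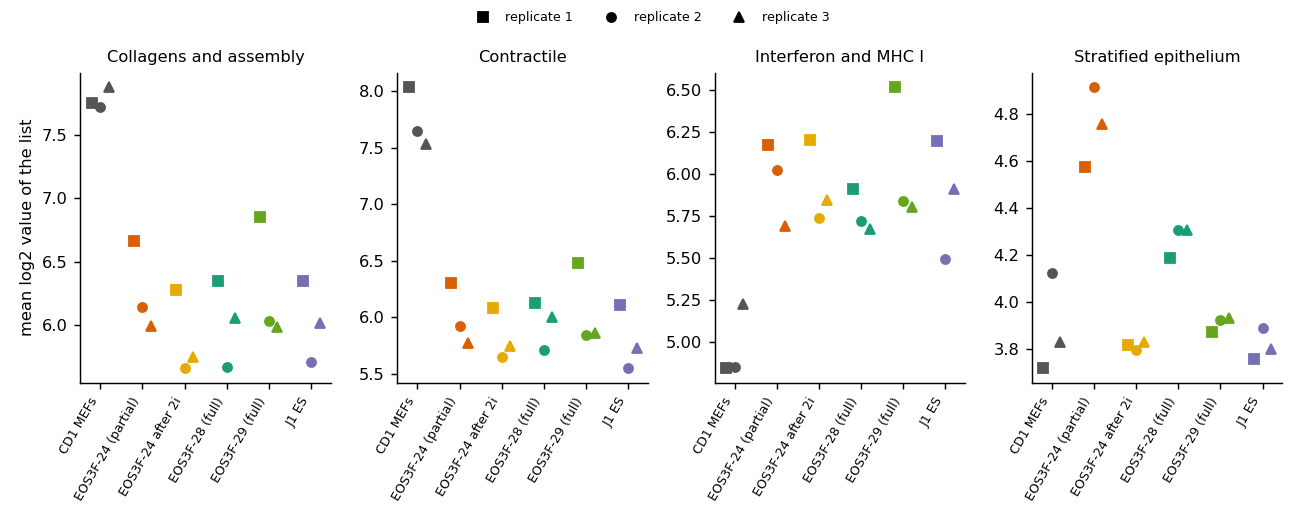
Mean log2 value of 4 gene lists (vertical axes, each with its own range) in each of the 18 arrays, by group; squares, circles and triangles are replicates 1, 2 and 3. The 3 partial arrays lie at 5.99 to 6.66 for the collagen genes, below all MEF arrays (7.72 to 7.88) and among the other feeder-grown groups, and lie above every other array for the stratified epithelium genes (4.58 to 4.92).

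Of the 19937 genes 23.7% were called between partial cells and MEFs, 13.7% higher and 10.0% lower in partial cells. With at least a 2-fold difference, 581 genes were higher (2.91%) and 660 lower (3.31%). At 4-fold the numbers were 136 and 132, and at 16-fold 17 and 2. The gains were thus fewer than the losses at 2-fold and more numerous at 16-fold. The median difference over all genes was 0.04. Renormalizing with cyclic loess changed the split of the calls from 2722 higher and 1995 lower to 2138 higher and 2581 lower, and that of the 2-fold calls to 478 higher and 783 lower.

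**Figure D2:**
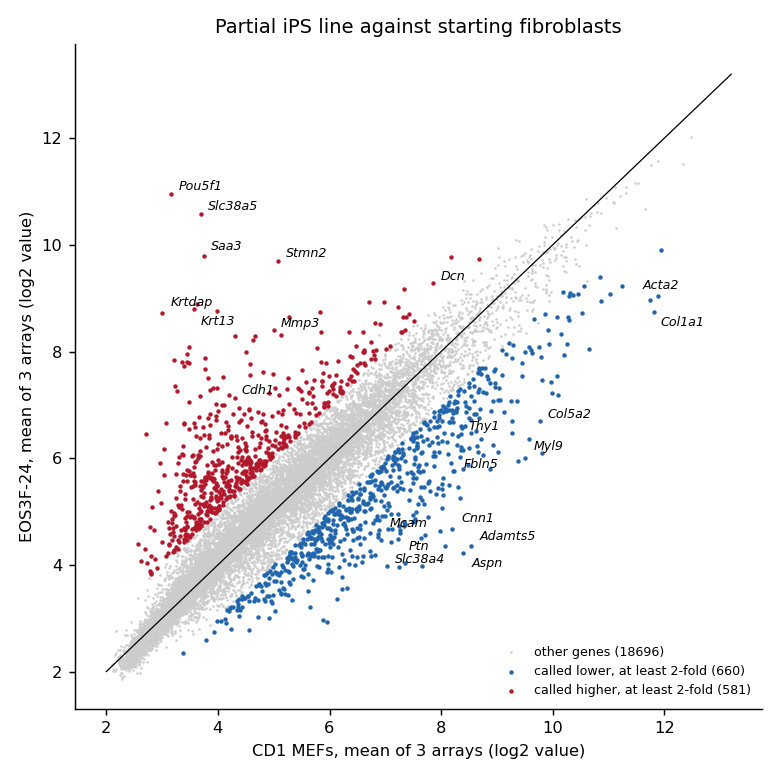
Mean log2 value of each of the 19937 genes in the 3 MEF arrays (horizontal axis) and the 3 EOS3F-24 arrays (vertical axis); red and blue points are genes called higher (581) and lower (660) with at least a 2-fold difference, and the line marks equality. Gained genes such as Pou5f1 and Slc38a5 start from levels near 3 to 4 in MEFs, and lost genes such as Col1a1 and Acta2 from levels near 12.

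Genes of the extracellular matrix were broadly reduced. Of 32 measured genes for fibrillar collagens and collagen assembly, 27 were lower in partial cells, 1 was higher and 4 were not called, with a median difference of -1.60. In 29 of them the arrays of the groups did not overlap, as in 39.6% of all genes. Of 28 elastic fibre and matricellular genes, 22 were lower and 0 higher (median -1.56), the other 6 not being called. Both counts stand against 10.0% of all genes called lower.

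Col1a1, which encodes a chain of type I collagen, read 11.84, 11.76 and 11.83 in MEFs and 9.75, 8.55 and 7.96 in partial cells. The groups did not overlap, and partial replicate 1 lay closest to the fibroblasts. The difference was -3.06 ± 0.51 (adjusted p = 0.000254), or 8.35-fold. Col1a2 (-2.85), Col3a1 (-2.76), Col5a2 (-3.08) and Col6a3 (-2.80), other collagen chains, fell with it. Serpinh1, the collagen chaperone of the endoplasmic reticulum, read 8.79, 8.94 and 8.54 in MEFs and 6.78, 5.68 and 5.74 in partial cells, a fall of 2.69 ± 0.40 (adjusted p = 7.8e-05). Taken whole by symbol, the Col family had 21 of 44 members lower and 1 higher. The 1 assembly gene called higher was Loxl4, a lysyl oxidase that crosslinks collagen, at 5.41, 5.14 and 5.63 in MEFs and 5.89, 6.40 and 6.36 in partial cells (0.82 ± 0.19, adjusted p = 0.00375). It was also higher than in the full lines (1.72, adjusted p = 7.93e-07) and J1 (2.40, adjusted p = 6.55e-08).

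Of the elastic and matricellular genes, Fbln5, a fibulin needed for elastic fibres, read 9.84, 8.35 and 9.92 in MEFs and 7.09, 5.36 and 5.39 in partial cells. That is a fall of 3.43 ± 0.56 (adjusted p = 0.000204). Ccn4 (-3.07), Ccn2 (-2.60) and Postn (-2.54), secreted proteins that act at the cell surface in wound repair, fell as well. Tnc at -1.21 (adjusted p = 0.168) and Thbs2 at -1.18 (adjusted p = 0.144) were not called, and in both partial replicate 1 stood near the MEF values (Tnc 9.47 against 9.61 to 9.92). Without that array Thbs2 was called (adjusted p = 0.0385), and Tnc was called when the 6 arrays were fitted alone (0.0246).

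Small leucine-rich proteoglycans, which coat collagen fibrils, were split. Aspn read 8.23, 7.84 and 9.09 in MEFs and 5.52, 3.49 and 3.68 in partial cells, a fall of 4.16 ± 0.49 (adjusted p = 6.99e-06). Ogn (-2.92), Fmod (-2.16) and the large proteoglycan Vcan (-2.41) also fell. Dcn, decorin, went the other way at 7.84, 7.61 and 8.11 in MEFs and 9.83, 9.06 and 8.93 in partial cells (1.42 ± 0.40, adjusted p = 0.015). On leaving out MEF replicate 2 the adjusted p was 0.0532, and on leaving out partial replicate 1 it was 0.0743, so Dcn was no longer called. Dcn stood at 9.08 to 9.62 on average in the full lines and J1, and was not called against either (adjusted p = 0.856 and 0.809). Lum, lumican, was not called (0.66, adjusted p = 0.574). In all 8 of the 15 measured genes were lower and 1 was higher (median -0.81), beside 10.0% and 13.7% of all genes.

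Proteases of the matrix were more often lower than higher, beside 10.0% of all genes lower and 13.7% higher. Adamts5, an aggrecan-cleaving enzyme, had the largest fall of all named genes: 8.60, 7.98 and 9.02 in MEFs and 5.35, 3.83 and 3.89 in partial cells, a difference of -4.18 ± 0.41 (adjusted p = 8.29e-07) or 18.1-fold. Adamts12 (-2.86), Adamts1 (-2.60) and Mmp14, a membrane-bound collagenase (-2.36), fell too. Of 18 Adamts genes 8 were lower and 3 higher, led by Adamts7 (0.65 ± 0.16, adjusted p = 0.00654), and of 22 Mmp genes 6 were lower and 4 higher. Mmp3, stromelysin, rose from 4.16, 5.45 and 5.38 to 9.13, 8.0 and 8.08 (3.40 ± 0.56, adjusted p = 0.000206). Mmp10 (2.11) and Mmp9 (1.30) rose with it. Mmp13 rose by 1.74, a call lost without partial replicate 1 (adjusted p = 0.0956) or MEF replicate 1 (0.132) and with trended robust variances (0.0515). None of these 4 was called against the full lines or J1. Of the 25 genes, 15 were lower and 4 higher. The inhibitors did not follow either direction: Timp1 was at -0.47 (adjusted p = 0.55, and 0.0449 in the fit of the 6 arrays alone) and Timp3 at 0.23 (adjusted p = 0.696). Timp3 was higher in partial cells than in the full lines (1.55, adjusted p = 0.000981) and J1 (3.10, adjusted p = 2.74e-06).

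**Figure D3:**
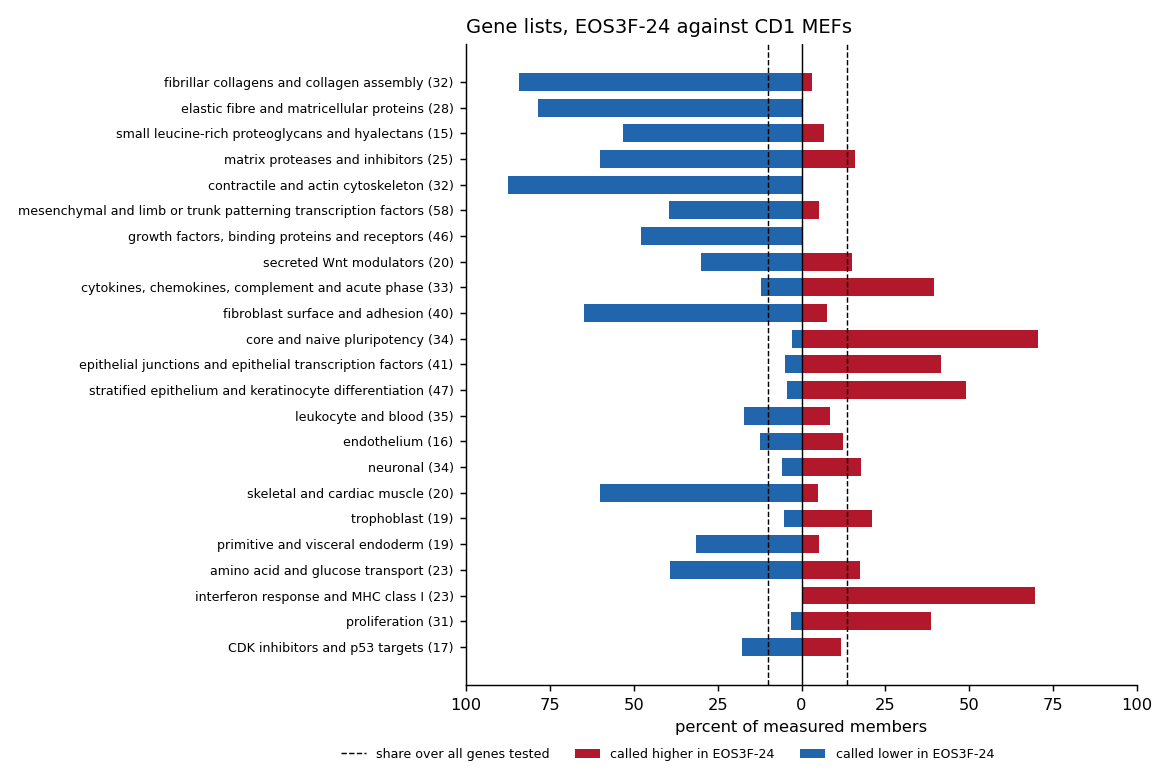
Percent of the measured members of 23 gene lists (number in brackets) called higher (red, to the right) or lower (blue, to the left) in EOS3F-24 than in CD1 MEFs; dashed lines give the shares over all genes, 13.7% higher and 10.0% lower. Matrix, contractile, growth factor and surface lists extend to the left, and pluripotency, interferon, stratified epithelium and epithelial junction lists to the right.

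Genes of the contractile apparatus were lower almost throughout. Of 32 measured, 28 fell, 0 rose and 4 were not called, with a median difference of -1.82, beside 10.0% of all genes lower. The genes not called were Mylk, Csrp2, Myocd and Mrtfb. Srf, the transcription factor that drives many of these genes by binding the CArG box, fell itself by 0.77 ± 0.16 (adjusted p = 0.00134). Of the 27 listed genes with a RefSeq promoter (250 bases before to 50 after the start, GRCm38.p6), 6 held a CArG box (22.2%), against 1.81% of all 27025 genes with such a promoter. The list holds Srf itself and genes it is known to drive, so an excess of this box was built into it. Among the genes tested here the share was 1.63%. The share was 5.45% of genes lower by at least 2-fold and 0.907% of genes higher by at least 2-fold. The CArG box and a further pair of motifs were counted on both strands: TGANTCA, the AP-1 site, in 5 of the 27 genes (18.5%, against 8.97%) and GGAATG, the TEAD site, in 10 (37.0%, against 16.6%). A match of letters does not show binding. The windows that follow show the box in 5 of these promoters, with each box in capitals and the position of its first base, in bases before the start. They come from RefSeq for GRCm38.p6 and are given 5′ to 3′ on the gene's strand, and end before the start.
Cnn2 (calponin 2; chr10:79988499-79988598, plus strand, box at 56): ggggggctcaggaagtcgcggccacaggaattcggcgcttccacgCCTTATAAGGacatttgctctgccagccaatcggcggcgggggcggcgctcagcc
Myl9 (regulatory myosin light chain; chr2:156775258-156775357, plus strand, box at 161): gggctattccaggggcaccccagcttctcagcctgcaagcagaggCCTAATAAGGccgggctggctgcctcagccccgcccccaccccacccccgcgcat
Fhl1 (LIM domain protein; chrX:56779536-56779635, plus strand, box at 102): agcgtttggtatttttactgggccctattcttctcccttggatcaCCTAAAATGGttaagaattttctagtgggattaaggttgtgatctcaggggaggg
Fhl2 (LIM domain protein; chr1:43163962-43164037, minus strand, box at 31): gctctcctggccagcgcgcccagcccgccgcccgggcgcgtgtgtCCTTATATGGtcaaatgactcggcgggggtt
Srf (chr17:46556190-46556289, minus strand, boxes at 82 and 62): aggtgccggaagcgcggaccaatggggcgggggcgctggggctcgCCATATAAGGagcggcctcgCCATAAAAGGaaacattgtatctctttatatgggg

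The genes with these windows fell by different amounts. Cnn2 read 9.91, 9.42 and 9.42 in MEFs and 7.02, 6.18 and 5.88 in partial cells (-3.22 ± 0.35, adjusted p = 2.42e-06). Myl9 read 10.08, 9.29 and 9.14 in MEFs and 6.67, 5.83 and 5.54 in partial cells (-3.49 ± 0.52, adjusted p = 7.59e-05). Fhl2 was at -2.53 ± 0.22 (adjusted p = 2.32e-07). In each of them the 3 partial arrays lay below all MEF arrays. Filip1l, whose box (at 62) is not shown above, was at -0.74. Its call was lost in 6 alternatives (adjusted p = 0.0521 to 0.161). The largest contractile fall was in Cnn1, calponin 1, whose window held no box: 8.87, 7.98 and 7.75 in MEFs and 5.15, 4.52 and 4.33 in partial cells (-3.54 ± 0.25, adjusted p = 1.34e-08). Acta2, smooth muscle actin, fell from 11.92, 11.47 and 11.83 to 9.75, 8.85 and 8.32 (-2.77 ± 0.55, adjusted p = 0.00102), and Tagln by 2.91. Vim, the intermediate filament gene of mesenchymal cells, fell by 0.99 and stayed between 10.53 and 10.76 in the partial arrays.

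Receptors, ligands and surface proteins of fibroblasts were reduced in part. Of 46 growth factor, binding protein and receptor genes, 22 were lower, 0 higher and 24 not called (median -0.80). Over all genes 10.0% were lower and 13.7% higher. Ptn, a heparin-binding growth factor, read 8.29, 7.18 and 8.74 in MEFs and 5.32, 3.79 and 3.96 in partial cells (-3.72 ± 0.53, adjusted p = 5.2e-05). Pdgfrb, the PDGF receptor of mesenchymal cells, read 8.88, 9.07 and 9.11 in MEFs and 7.03, 5.82 and 5.50 in partial cells (-2.90 ± 0.41, adjusted p = 4.53e-05). Both were lower in every partial array than in every MEF array. Tgfb3 (-2.95), Igf2 (-2.60), Igfbp6 (-2.57) and Hgf (-1.61) also fell. Of 20 secreted Wnt modulators 6 were lower and 3 higher, with 3 lower without partial replicate 2 and 2 without partial replicate 3. Of the 3 higher, Wif1 (1.02, adjusted p = 1.55e-05) kept its call in every alternative that tested it, while Sost (0.31) and Wnt5b (0.34) lost it without partial replicate 1, partial replicate 3 or MEF replicate 3 (adjusted p = 0.0658 to 0.161). Pdgfra, the paralogous receptor, was at -1.28 (adjusted p = 0.0783), with partial replicate 1 at 7.47 inside the MEF range of 7.18 to 8.37; without that array it was called (adjusted p = 0.0212).

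Among 40 surface and adhesion genes, 26 fell, 3 rose and 11 were not called (median -1.25), beside 10.0% and 13.7% of all genes. Thy1, the usual surface marker of MEFs, read 8.47, 8.17 and 8.45 in MEFs and 7.15, 6.37 and 5.86 in partial cells (-1.90 ± 0.35, adjusted p = 0.000656). The caveolin gene Cav1 (-2.60), the collagen receptor gene Itga11 (-2.57) and Nrp1 (-2.55) fell more. The 3 that rose were Nt5e, an ectonucleotidase (1.39 ± 0.19, adjusted p = 2.83e-05), the guidance receptor gene Robo1 (0.88 ± 0.14, adjusted p = 0.000194) and Pdpn, podoplanin. Pdpn at 0.95 lost its call without partial replicate 2 (adjusted p = 0.0513) or MEF replicate 1 (0.0871). Cd44, the hyaluronan receptor, read 6.65, 6.56 and 6.25 in MEFs and 6.78, 7.15 and 6.55 in partial cells, a difference of 0.34 (adjusted p = 0.622). Lgals1 (-0.82, adjusted p = 0.142) and S100a6 (-0.39, adjusted p = 0.652), both abundant in mesenchymal cells, were not called. Lgals1 was called lower when the 6 arrays were fitted alone (adjusted p = 0.000534).

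Of 58 transcription factors of mesenchyme, 23 were lower, 3 higher and 32 not called (median -0.30), beside 10.0% and 13.7% of all genes. Ebf1 read 6.94, 7.25 and 6.93 in MEFs and 5.29, 4.39 and 4.36 in partial cells (-2.36 ± 0.24, adjusted p = 1.52e-06). Snai2 (-1.75), Zeb2 (-1.55), Snai1 (-1.49) and Twist1 (-1.19), repressors of the epithelial state, all fell. Zeb1 of the same class was at -0.44 (adjusted p = 0.229), and Prrx1 at -1.46 lost its call without partial replicate 3 (adjusted p = 0.0589). The factors that rose were Tbx20, a heart factor (1.33 ± 0.11, adjusted p = 1.08e-07), the tendon factor Mkx (1.21 ± 0.14, adjusted p = 4.26e-06) and the hindlimb factor Tbx4 (0.87 ± 0.13, adjusted p = 8.61e-05). Each of the 3 was also higher than in the full lines and J1 (differences of 0.77 to 1.23). Of 37 Hox genes, which record position along the body axis, 4 were higher than in MEFs, 4 lower and 29 not called. That is 21.6% of the family called, below the 23.7% of all genes. Against the full lines 17 of the 37 were higher and 0 lower (12.8% of all genes were higher), and against J1 21 and 0 (13.3%).

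Few genes of the matrix and contractile lists were called between partial cells and the other feeder-grown cells. Against the full lines 18.6% of all genes were called, 12.8% higher and 5.78% lower; of the 32 collagen genes 1 was higher and 1 lower, of the 28 elastic and matricellular genes 0 and 1, and of the 32 contractile genes 2 and 2. Against J1, where 22.9% of all genes were called, 13.3% higher and 9.65% lower, these lists had 1 and 1, 2 and 1, and 4 and 3. Partial and J1 arrays of the same replicate number deviated together, and with that number as a block against J1 5 collagen genes were higher and 1 lower, 3 and 1 elastic and matricellular genes, and 13 and 4 contractile genes, beside 15.3% and 11.4% of all genes. Acta2, 1.08 above J1 (adjusted p = 0.183), was then called (0.00482), as was Myl9, 0.79 above J1 (adjusted p = 0.331 and 0.008). More genes were higher in 2 other fibroblast lists. With the block 14.9% of all genes were higher and 6.97% lower than in the full lines. Of 40 surface and adhesion genes 7 were higher and 2 lower than in the full lines (14 and 4 with the block). Against J1 they were 13 and 4 (19 and 5 with the block). Of 58 mesenchymal transcription factors 12 were higher and 4 lower than in the full lines (15 and 5 with the block). Against J1 they were 15 and 5 (20 and 5 with the block). J1 is an ES line, yet it read Col1a1 at 8.50 on average, against 8.75 in partial cells. RNA of feeder cells can be in all feeder-grown samples, and its part in these levels was not tested; fewer fibroblasts and less RNA per fibroblast cannot be told apart in bulk samples.

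Other large falls lay outside these lists. Ccdc80, a secreted matrix-associated protein, read 10.01, 9.03 and 10.39 in MEFs and 6.78, 5.98 and 5.53 in partial cells (-3.71 ± 0.42, adjusted p = 4.08e-06). Rgs4, which shortens G-protein signalling, read 7.96, 7.70 and 7.32 in MEFs and 4.29, 3.73 and 3.91 in partial cells (-3.68 ± 0.17, adjusted p = 5.22e-11). Aldh1l2, a mitochondrial folate enzyme (-3.31), Lrrc17 (-3.28) and the pentraxin gene Ptx3 (-3.16) fell with no overlap between the arrays. None of the 5 was called against the full lines.

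A small set fell in partial cells below the other feeder-grown groups as well. Mcam, a melanoma and pericyte adhesion molecule, read 8.69, 7.72 and 7.55 in MEFs and 4.89, 4.59 and 4.43 in partial cells (-3.35 ± 0.24, adjusted p = 1.68e-08). Its means were 5.75 and 6.32 in the full lines and 6.07 in J1, and partial cells were lower by 1.39 and 1.43 (adjusted p = 9.54e-05 and 0.000228). Slc38a4, an amino acid transporter gene and an imprinted one, read 7.0, 8.11 and 6.0 in MEFs and 3.98, 4.20 and 3.74 in partial cells. It stood at 7.52 to 8.22 on average in the full lines and J1, so partial cells lacked it against both sides (-3.06 ± 0.41 from MEFs, adjusted p = 2.42e-05, and -3.64 ± 0.35 from the full lines, adjusted p = 8.24e-07). The imprinted retroelement-derived gene Peg10 fell by 1.30 from MEFs and was 2.86 lower than in the full lines (adjusted p = 0.00101 and 5.23e-08). Slc7a3, an arginine transporter gene, was lower by 1.13 and 2.11 (adjusted p = 0.00055 and 1.75e-07). The same held for Cdh3, P-cadherin (-1.73 and -1.03), for the nonmuscle myosin gene Myh10 (-2.57 and -0.92), for Bmp4 (-1.81 and -1.55) and for the Wnt antagonist gene Sfrp2 (-1.27 and -1.33), each called against MEFs and full lines. Fhl1 was lower by 3.13 than MEFs and by 0.94 than the full lines; the latter no longer held on leaving out partial replicate 2 (0.0672) or 3 (0.0748).

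**Figure D4:**
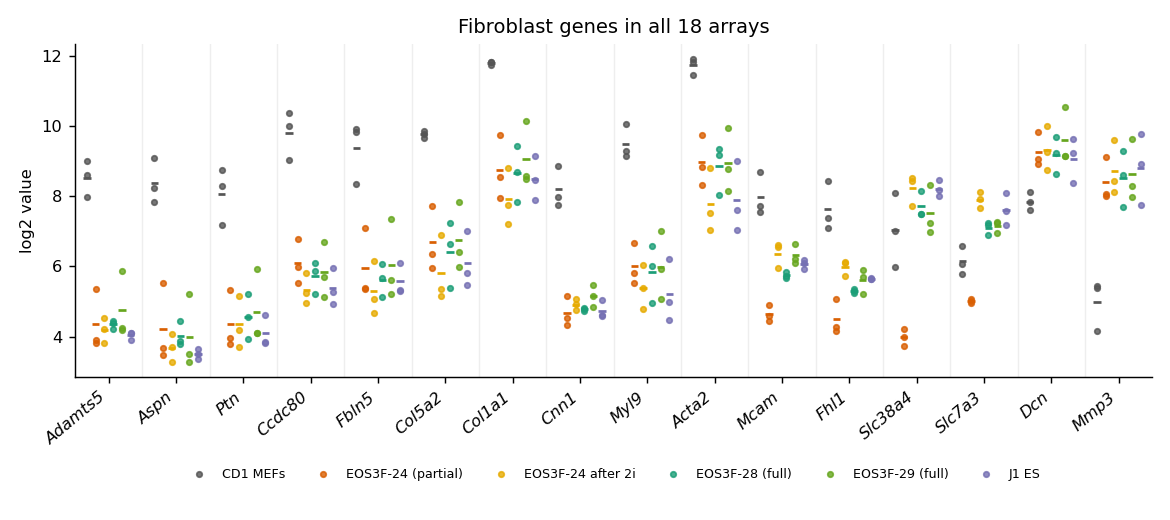
Log2 values of 16 genes of fibroblasts (horizontal axis) in all 18 arrays; points are single arrays, coloured by group, and short bars are group means. For Col1a1 the partial arrays (7.96 to 9.75) overlap the other feeder-grown groups below MEFs, for Slc38a4 they lie below all other groups (3.74 to 4.20), and for Dcn and Mmp3 all feeder-grown means lie above MEFs.

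Gains began with the pluripotency genes, which moved unevenly. Of 34 genes, 24 were higher than in MEFs, 1 lower and 9 not called (median 0.78, against 13.7% of all genes higher). Against the full lines, where 5.78% of all genes were lower, 29 of the 34 were lower and 1 higher. Pou5f1, which encodes Oct4 and was carried by a retrovirus, read 3.35, 3.17 and 2.98 in MEFs and 10.61, 11.02 and 11.24 in partial cells. It was the 1 member higher than in the full lines (1.36, adjusted p = 1.47e-06), and was also above J1 (1.43, adjusted p = 3.78e-06). Sox2, also carried by a virus, read 3.87, 3.91 and 3.49 in MEFs and 4.34, 4.71 and 5.08 in partial cells, and was 3.49 lower than in the full lines (adjusted p = 2e-10). Klf4, the factor of the third virus, rose by 1.20 and was not called against the full lines (0.21, adjusted p = 0.364). Probe sets cannot be assumed to tell viral from endogenous transcript. Nanog, a core factor that no virus carried, read 3.31, 3.62 and 3.33 in MEFs and 4.17, 5.14 and 4.39 in partial cells, and was 3.84 lower than in the full lines (adjusted p = 2.31e-10). L1td1, an RNA-binding protein gene of ES cells, rose from 3.05, 3.66 and 3.61 to 7.47, 7.94 and 8.03 (4.37 ± 0.25, adjusted p = 1.18e-09). It was not called against the full lines (0.13, adjusted p = 0.76) or J1 (0.13, adjusted p = 0.788). Tfap2c, another factor of early embryos and germ cells, rose by 2.34 and was not called against the full lines (0.43, adjusted p = 0.109). It was called with the replicate number as a block or without EOS3F-29 replicate 2 (adjusted p = 0.0144 to 0.0465).

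Other members rose but stayed short of the full lines. Tdgf1, a Nodal co-receptor gene, read 3.38, 3.38 and 3.40 in MEFs and 6.51, 8.26 and 8.43 in partial cells, with means of 9.97 to 10.34 in the full lines and J1. Nr0b1 rose by 2.94 and was 2.23 lower than in the full lines (adjusted p = 3.57e-08). Dppa5a rose by 1.79 and was 4.37 lower, and Utf1 rose by 1.07 and was 4.14 lower. Dnmt3l, at 0.61 above MEFs, was called (adjusted p = 0.0207), but not without partial replicate 2 or 3 or MEF replicate 1 or 3 (adjusted p = 0.0711 to 0.124). Klf2, a naive-state factor, was the 1 member lower than in MEFs, at -0.50 (adjusted p = 0.0288). That call was lost without partial replicate 2 or 3, without MEF replicate 1 or 3, and under housekeeping centring (adjusted p = 0.053 to 0.16).

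Epithelial adhesion was gained in an uneven way. Of 41 junction genes and epithelial transcription factors, 17 were higher than in MEFs, 2 lower and 22 not called (median 0.29). Of all genes 13.7% were higher and 10.0% lower. Against the full lines 7 of the 41 were higher and 17 lower, beside 12.8% and 5.78% of all genes. Against J1 7 were higher and 22 lower (7 and 25 with the replicate number as a block), beside 13.3% and 9.65% of all genes. Cdh1, E-cadherin, read 4.15, 4.61 and 4.14 in MEFs and 7.05, 7.19 and 7.15 in partial cells, and partial cells were not called against the full lines (-0.24, adjusted p = 0.374). At -1.11 it was lower than in J1 (adjusted p = 0.000288). Dsp, desmoplakin of the desmosome, read 3.42, 4.54 and 3.48 in MEFs and 6.28, 7.06 and 6.91 in partial cells (2.94 ± 0.29, adjusted p = 7.98e-07). Epcam read 3.41, 4.14 and 2.99 in MEFs and 3.62, 4.42 and 4.53 in partial cells (0.68, adjusted p = 0.0895), against means of 6.75 to 7.56 in the full lines and J1. Leaving out MEF replicate 2 (0.0129) or partial replicate 1 (0.0183) made it a call. Of 27 claudin genes 1 was higher, Cldn11 (1.13 ± 0.14, adjusted p = 1.27e-05), and 1 lower, Cldn1 (-0.52), a call lost without partial replicate 3 (adjusted p = 0.106), MEF replicate 2 (0.0539) or MEF replicate 3 (0.094). The epithelial factor gene Grhl2 was at 0.07 (adjusted p = 0.779) and was 1.54 lower than in the full lines.

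Many genes of stratified epithelium rose, while Trp63 and Krt5 were not called. Of 47 such genes, 23 were higher than in MEFs, 2 lower and 22 not called (median 0.39), beside 13.7% and 10.0% of all genes. Against the full lines 18 were higher and 0 lower, beside 12.8% of all genes higher. Krtdap, a secreted protein of differentiating keratinocytes, read 2.67, 3.39 and 2.94 in MEFs and 8.35, 9.02 and 8.81 in partial cells, or 52.9-fold higher. Krt13, a keratin of moist stratified epithelia, read 3.73, 3.51 and 3.47 in MEFs and 8.05, 8.82 and 9.53 in partial cells (5.23 ± 0.24, adjusted p = 5.22e-11). Tgm3, a transglutaminase of the cornified envelope, read 3.51, 3.44 and 3.42 in MEFs and 7.25, 8.29 and 8.30 in partial cells (4.49 ± 0.31, adjusted p = 1.43e-08). No partial array of these genes came near a MEF array. Aqp3, a glycerol channel (3.63), the desmosome component Perp (3.58), Dsg3 (2.27), Krt6b (2.35), Krt16 (1.68) and Krt1 (1.93) rose as well.

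Krt14, a basal keratin, rose from 4.10, 7.10 and 4.18 to 7.67, 8.78 and 8.50 (3.19 ± 0.51, adjusted p = 0.000166), where the MEF replicate 2 value stands apart as it did for Krt5. Krt5, its usual filament partner, read 3.69, 3.69 and 3.64 in partial cells and was not called (-1.26, adjusted p = 0.205); without MEF replicate 1 it was called lower (adjusted p = 0.0474). Trp63, the master regulator of stratified epithelia, read 3.78, 3.75 and 3.68 in MEFs and 3.90, 3.79 and 3.69 in partial cells (0.06 ± 0.10, adjusted p = 0.756). The late cornification genes Lor (0.13, adjusted p = 0.565) and Ivl (0.00, adjusted p = 0.999) were not called. Ehf, an ETS factor of epithelia, rose from 2.98, 3.41 and 3.41 to 7.05, 7.20 and 7.52 (3.99 ± 0.16, adjusted p = 1.54e-11). In the Krt family by symbol, 13 of 52 were higher and 1 lower, beside 13.7% and 10.0% of all genes. In either direction 26.9% of the family were called, against 23.7% of all genes. The simple-epithelial keratin gene Krt19 rose by 3.38, with partial replicate 1 at 7.09 and the others at 9.27 and 9.56, while Krt18 was at -0.14 (adjusted p = 0.73). The laminin gene Lama3 (2.77) and the integrin gene Itgb4 (2.09), which together anchor epithelia to the basement membrane, rose too.

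Some stratified genes were also raised in a full line. Krtdap averaged 6.82 in EOS3F-28, 4.20 in EOS3F-29, 3.25 in J1 and 3.07 in the converted cells. Tgm3 averaged 6.57 in EOS3F-28 and 4.35 in EOS3F-29, and Gcnt3, a mucin glycosyltransferase gene that rose by 4.63 from MEFs, 6.12 and 3.86. Partial cells were still higher than the mean of the full lines for each of the 3 (3.21, 2.49 and 2.84, adjusted p at most 3.55e-06). Krt14 averaged 6.71 in EOS3F-28 and 4.88 in EOS3F-29, and Krt13 5.68 and 4.33.

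**Figure D5:**
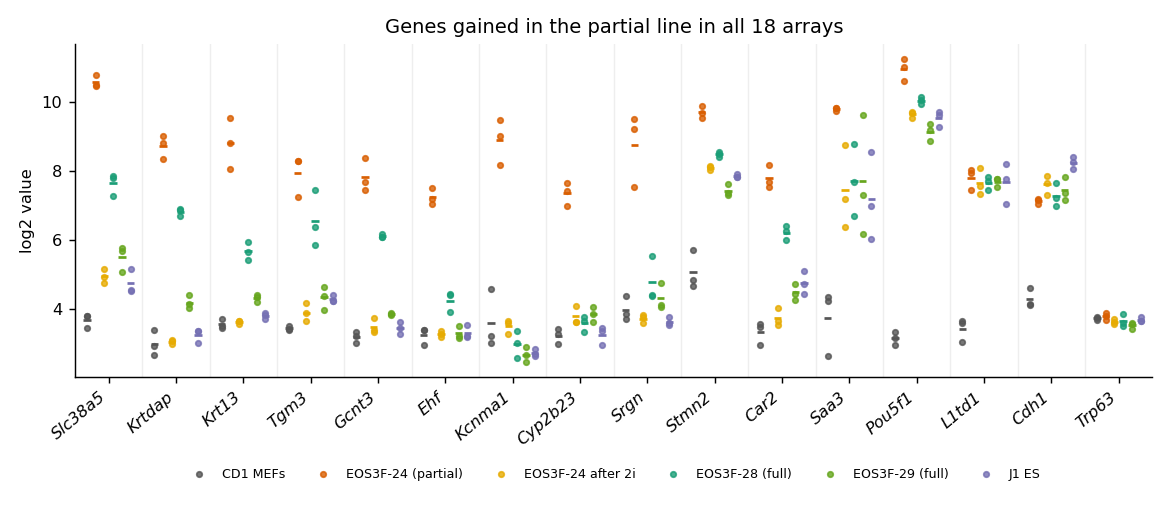
Log2 values of 16 genes (horizontal axis) in all 18 arrays; points are single arrays, coloured by group, and short bars are group means. For the genes from Slc38a5 to Car2 the partial mean is the highest of the 6 groups. EOS3F-28 is next for Slc38a5, Krtdap, Krt13, Tgm3, Gcnt3, Ehf, Srgn, Stmn2 and Car2. Pou5f1, L1td1 and Cdh1 are high in all feeder-grown groups and Trp63 is near 4 throughout.

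Several of the largest gains were in genes outside the fibroblast and pluripotency lists. Crybg1 read 3.43, 3.60 and 3.45 in MEFs and 7.77, 8.42 and 8.07 in partial cells (4.60 ± 0.14), but its second probe set was at -0.08 (adjusted p = 0.785). Ccnb1ip1, a meiotic recombination gene, rose by 4.31 ± 0.17 (adjusted p = 1.08e-11) and averaged 6.41 to 7.03 in the full lines and J1. Slc38a5, a transporter of glutamine and other neutral amino acids, read 3.80, 3.81 and 3.45 in MEFs and 10.47, 10.48 and 10.79 in partial cells. The Slc38a5 difference was 6.89 ± 0.21 (adjusted p = 1.77e-13), or 119-fold, in the cells in which its relative Slc38a4 fell. Slc38a5 read 7.80, 7.29 and 7.86 in EOS3F-28 and 5.77, 5.09 and 5.69 in EOS3F-29. Over 23 transporter genes for amino acids, glucose and lactate, 4 were higher and 9 lower, beside 13.7% and 10.0% of all genes. The falls included Slc7a3 (-1.13), Slc6a9 (-1.10) and Slc38a2 (-1.06) beside Slc38a4. Rises other than Slc38a5 were Slc6a15 (2.17), Slc16a1 (1.76) and the glucose transporter gene Slc2a3 (1.56). Slc2a3 remained 3.51 below the full lines (adjusted p = 5.95e-07). For the cystine transporter gene Slc7a11 the difference was 0.76 (adjusted p = 0.131), which became a call on leaving out MEF replicate 2 (0.00342).

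Single genes known from blood, endothelial and neuronal cells rose, in lists whose share of calls was near that of all genes. Srgn, serglycin of secretory granules, read 3.72, 3.86 and 4.37 in MEFs and 7.54, 9.51 and 9.22 in partial cells (4.77 ± 0.39, adjusted p = 8.85e-08), and the lysosomal gene Laptm5 rose by 3.19. Laptm5 also averaged 6.29 to 6.79 in the full lines and J1, and partial cells were 1.00 above the full lines (adjusted p = 0.00205). Of 35 leukocyte and blood genes 3 rose and 6 fell, 25.7% of the list against 23.7% of all genes. Ptprc, CD45, read 3.36, 3.44 and 3.42 in partial cells (-0.22, adjusted p = 0.4) and Tyrobp was at -0.30 (adjusted p = 0.19, and 0.0416 without MEF replicate 2). The count of 6 became 3 without partial replicate 2, and 2 without partial replicate 3 or MEF replicate 3. Tek, the angiopoietin receptor gene, rose from 3.59, 3.15 and 3.32 to 5.90, 6.54 and 5.80 (2.73 ± 0.17, adjusted p = 2.49e-09), and Esam by 1.91. Tek averaged 5.06 in EOS3F-28 and 4.32 in EOS3F-29. Cdh5, VE-cadherin, was at 0.07 (adjusted p = 0.631) and Pecam1 at 0.53 (adjusted p = 0.305, and 0.024 in the fit of the 6 arrays alone). Of 16 endothelial genes 2 rose and 2 fell, 25% against 23.7%. The falling count was 1 without partial replicate 2, partial replicate 3 or MEF replicate 1.

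Stmn2, a tubulin-binding protein of growth cones, read 4.68, 4.86 and 5.71 in MEFs and 9.55, 9.87 and 9.69 in partial cells (4.62 ± 0.18, adjusted p = 1.08e-11). The RNA-binding protein gene Elavl2 rose from 3.70, 3.69 and 3.78 to 6.67, 6.46 and 6.62 (2.86 ± 0.10, adjusted p = 3.1e-12). Stmn2 was high in the other feeder-grown groups too, with means of 7.43 to 8.48 in the full lines and J1, and Elavl2 averaged 4.88 to 5.60 there. Partial cells were above the full lines by 1.75 and 1.5 (adjusted p = 4.59e-07 and 1.87e-09). Mapt, the microtubule protein tau, rose by 0.99 ± 0.11 (adjusted p = 4.71e-06). Over 34 neuronal genes 6 rose and 2 fell, 23.5% of the list against 23.7% of all genes. Of the neuron markers, Snap25 (0.09, adjusted p = 0.619), Syt1 (0.24, adjusted p = 0.0683), Elavl3 (0.28, adjusted p = 0.399) and Tubb3 (0.49, adjusted p = 0.101) were not called, though for the last 3 every partial array lay above every MEF array. Tubb3 was called with housekeeping centring (adjusted p = 0.0463) and in the fit of the 6 arrays alone (0.028), and Syt1 without MEF replicate 3 (0.0402). Kcnma1, a calcium-gated potassium channel, read 3.22, 3.03 and 4.59 in MEFs and 8.17, 9.01 and 9.49 in partial cells, but its second probe set was called in the opposite direction at -0.31 (adjusted p = 0.0413), so this rise rests on 1 probe set.

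Among enzymes, the cytochrome gene Cyp2b23 read 3.01, 3.28 and 3.43 in MEFs and 6.99, 7.43 and 7.65 in partial cells (4.12 ± 0.19, adjusted p = 7.15e-11), 1 of 2 called higher of 43 Cyp2 genes. It was 3.63 above the full lines and 4.09 above J1 (adjusted p = 9.48e-11 and 8.4e-11). Car2, a carbonic anhydrase, rose from 3.57, 3.50 and 2.97 to 7.55, 8.17 and 7.68 (4.45 ± 0.21, adjusted p = 6.7e-11) and was 2.44 above the full lines (adjusted p = 2.75e-08). Those lines differed, with Car2 at 6.26, 6.40 and 6.01 in EOS3F-28 and 4.74, 4.28 and 4.46 in EOS3F-29.

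Single regulators of extraembryonic lineages rose by small amounts. Gata3 of trophoblast read 4.29, 4.16 and 4.14 in MEFs and 4.89, 5.22 and 4.81 in partial cells (0.77 ± 0.13, adjusted p = 0.00022). Gata6 of primitive endoderm read 4.76, 4.92 and 4.39 in MEFs and 5.26, 5.46 and 5.61 in partial cells (0.75 ± 0.14, adjusted p = 0.000561). Both were higher than in the full lines as well (0.94 and 0.90, adjusted p = 8.17e-06 and 3.03e-05). Of 19 trophoblast genes 4 were higher and 1 lower (median 0.14), a share of 26.3% called against 23.7% of all genes. The list's mean was 3.73 to 3.82 in the partial arrays and 3.63 to 3.67 in the MEF arrays. Of 19 primitive and visceral endoderm genes Gata6 alone was higher and 6 were lower, beside 13.7% and 10.0% of all genes. The falls were led by Col4a1 (-2.36) and Col4a2 (-2.25) of the basement membrane. The 6 became 3 without partial replicate 2 or partial replicate 3.

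A further group of gains was shared with the other feeder-grown cells. Of 23 interferon response and MHC class I genes, 16 were higher than in MEFs and 0 lower (median 0.86), beside 13.7% and 10.0% of all genes. Against the full lines 1 was higher and 2 lower, beside 12.8% and 5.78% of all genes. Usp18, which damps interferon signalling, read 3.78, 3.68 and 4.56 in MEFs and 6.46, 6.02 and 5.39 in partial cells (1.95 ± 0.40, adjusted p = 0.00142). The antiviral genes Oas2 (1.83) and Bst2 (1.74) and the factor Irf7 (1.75) rose alike. Ifit1 at 2.41 lost its call without partial replicate 1 (adjusted p = 0.0727), the array that read it at 7.24 against 5.91 and 5.01. B2m, the light chain of MHC class I, was at -0.02 (adjusted p = 0.966).

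Secreted immune proteins rose in part. Of 33 cytokine, chemokine, complement and acute-phase genes, 13 were higher and 4 lower (median 0.52), beside 13.7% and 10.0% of all genes. Against the full lines 7 were higher and 0 lower, beside 12.8% and 5.78% of all genes. Saa3, an acute-phase apolipoprotein, read 4.23, 4.35 and 2.66 in MEFs and 9.74, 9.82 and 9.83 in partial cells. The full lines and J1 averaged 7.20 to 7.72; partial cells were called higher than both (2.08, adjusted p = 0.0418, and 2.59, adjusted p = 0.0236), but both calls were lost on leaving out any partial array (adjusted p = 0.0539 to 0.124). The complement protease genes C1s1 (2.50 ± 0.25, adjusted p = 8.69e-07) and C1ra (1.48 ± 0.16, adjusted p = 2.93e-06) rose and were higher than in the full lines by 1.54 and 0.98 (adjusted p = 4.82e-05 and 6.59e-05). The chemokine gene Cxcl12 fell by 2.09 ± 0.35 (adjusted p = 0.000232). Cxcl5 at 2.91 lost its call without partial replicate 1 (adjusted p = 0.0601) or MEF replicate 1 (0.106) and with trended robust variances (0.0504).

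Genes of replication licensing were among the proliferation genes that rose. Of 31 genes 12 were higher and 1 lower (median 0.46), beside 13.7% and 10.0% of all genes. Among the 12 were Cdt1 (1.32 ± 0.25, adjusted p = 0.000697), Mcm10 (1.11 ± 0.17, adjusted p = 9.3e-05) and Mcm7 (0.99 ± 0.21, adjusted p = 0.0019). MEF replicate 3 read the list lowest, with a mean of 6.48 against 6.95 and 7.20, and the partial arrays read it at 7.22 to 7.31. The count of 12 fell to 5 without that MEF array and to 6 without partial replicate 3, and was 8 without partial replicate 2. Mki67 of dividing cells was at 0.30 (adjusted p = 0.425). Of 17 CDK inhibitors and p53 targets 2 were higher and 3 lower, 29.4% of the list against 23.7% of all genes. The larger rise was in Perp (3.58), which is also counted in the stratified epithelium list. Cdkn2a, whose products restrain division in cultured fibroblasts, read 4.92, 4.06 and 5.28 in MEFs and 5.29, 5.27 and 5.61 in partial cells. The groups overlapped, since MEF replicate 3 lay just above partial replicate 2. Its difference of 0.64 (adjusted p = 0.0476) lost the call in 8 of the alternatives, 5 of which left out 1 array, any partial array or MEF replicate 1 or 2 (adjusted p = 0.0602 to 0.27 over the 8).

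Muscle genes fell with an uneven MEF reference. Of 20 skeletal and cardiac muscle genes 12 were lower and 1 higher (median -0.78), beside 10.0% and 13.7% of all genes. Actc1 read 7.45, 8.82 and 5.79 in MEFs and 5.03, 4.71 and 4.53 in partial cells (-2.60 ± 0.44, adjusted p = 0.000266), and Acta1 fell by 2.15. The list's mean was 4.75, 5.20 and 4.20 in the MEF arrays and 3.88 to 3.96 in the partial arrays. Without MEF replicate 2 the count of 12 was 10.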

How the data were processed

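RNA of 6 groups with 3 arrays each was measured on Affymetrix whole-transcript arrays. The deposited series matrix holds log2 values made by the authors with RMA, per the submitters' processing notes; no genome build or array annotation is given in the sources used here. Of 34760 probe sets, 21640 had 1 gene symbol, 1321 several and 11799 none listed. The table holds no detection calls, so low values give no proof of expression. Means of the 6 groups over all 18 arrays were fitted with limma 3.58.1 (lmFit, eBayes; R 4.3.3), which share 1 estimate of spread, with Benjamini-Hochberg adjustment over 19937 genes. The contrasts with MEFs, with the mean of both full lines and with J1 share the partial arrays. Same-numbered partial and MEF arrays did not deviate together (0.0727, 0.064 and -0.137), nor in every pair those of EOS3F-28 (0.38, 0.342 and -0.0694). For EOS3F-29 the values were 0.387, 0.296 and 0.136, the last below that of another number (0.258). Partial and J1 arrays deviated together in every same-numbered pair (0.208, 0.242 and 0.223), so blocked values stand beside results against J1 where they move. Some blocked counts against the full lines are given beside the results and at the end.

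The members and lists were chosen with earlier results of these data known. Genes eligible to be named were the 15 largest non-overlapping rises and falls of at least 2-fold, up to 4 rises and 4 falls per list, the largest of those called, the largest called rise and fall of each family by symbol, 12 fixed genes and list exceptions; others were chosen after their values were seen. The fit was tested on simulated data for the comparison with MEFs (200 of 19937 genes changed, 10 runs). It called 55.5% of changes of 1.5-fold, 89.6% of those of 2-fold and 99.7% of those of 4-fold, and 5.29% of calls were false. The simulated noise was independent between genes and arrays, whereas single real arrays deviated over whole lists, so these rates need not hold here. The alternatives were cyclic loess, centring on housekeeping genes, the mean of a gene's probe sets, all probe sets, genes averaging 5 or more, the 6 arrays alone, trended robust variances, the replicate number as a block, and leaving out each array. Those for the contrasts with the full lines and J1 were added after the data were seen.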

Additional observations from a re-analysis of the deposited data

How the results depend on the processing

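Read through the chosen probe sets, no named difference that was called changed sign in the alternatives run; the second probe set of Kcnma1 was called the other way (-0.31). Against MEFs, 44 of 226 named genes changed their call in at least 1 alternative, against the full lines 34 and against J1 34. Keeping only genes that averaged 5 or more on the log2 scale, which tests fewer genes, left 2811 called, 313 higher and 430 lower by at least 2-fold. Members called lower were then 3 for small leucine-rich proteoglycans, 9 for mesenchymal transcription factors, 14 for growth factors, 3 for Wnt modulators, 2 for muscle, 5 for Itg genes, 4 for Adamts genes, and 0 for leukocyte and for endothelium genes. Members called higher were 6 for cytokines, 8 for epithelial junctions, 7 for stratified epithelium, 3 for neuronal genes, 4 for Krt genes and 0 for trophoblast. The count of leukocyte genes called lower was 3 with housekeeping centring and 2 with the 6 arrays alone; the cause was not tested. Leaving out each array gave 2 to 7 Wnt modulators lower, 2 to 8 leukocyte genes lower, 1 to 2 endothelial genes lower, 3 to 6 endoderm genes lower and 5 to 14 proliferation genes higher.

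For partial cells and MEFs replicate numbers did not pair the arrays: deviations of same-numbered arrays correlated at 0.0727, 0.064 and -0.137. With the replicate number as a block 5336 genes were called in place of 4717, and 5 CDK inhibitors and p53 targets were lower in place of 3. With this block 13 contractile and 5 collagen genes were higher than in J1. Against the full lines 14 surface and adhesion, 3 collagen, 2 elastic and 3 interferon genes were then higher and 3 elastic genes lower. The number of arrays limits the precision of all values, 1 line stands for the partial state, and dim genes near the array median have compressed differences.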
